A study of Mus musculus with 30 samples.

Results

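The genes described here are 9 members of the bone morphogenetic protein (BMP) pathway in lung organoid co-cultures: the ligands Bmp2, Bmp4 and Bmp7, the antagonists Grem1, Nog and Bambi, and the target genes Id1, Id2 and Id3. They were taken by symbol from the 55487 genes counted in every library, and each symbol was listed for 1 gene only. Epcam+ cells of wild-type adult C57BL/6J mice, 300000 per culture and depleted of CD31+ and CD45+ cells, were grown in Matrigel with an equal number of CCL206 cells, 1 established line of mouse lung fibroblasts that mitomycin C kept from dividing. Cultures were exposed for 72 hours to vehicle, to the exacerbation cocktail EC (TNFα, IL-1β, IL-6 and, in mouse cultures, KC in place of IL-8), to IPFc or to TGF-β at 2 ng/ml. IPFc holds 9 factors found at raised levels in idiopathic pulmonary fibrosis: the chemokines IL-8 and CCL2, the interleukins IL-33, IL-13, IL-4 and IL-1β, and TSLP, TNFα and TGF-β, so TGF-β was present in both of the last treatments. The cells were then separated again with Epcam beads into epithelial (Epcam+) and fibroblast (Epcam-) fractions and sequenced as bulk RNA, in 30 libraries of 4 mice. There were 4 epithelial libraries with vehicle, 4 with EC, 4 with IPFc and 3 with TGF-β, and 3 fibroblast libraries with vehicle and 4 with each of the other treatments. The epithelial TGF-β culture of mouse 1 and the fibroblast vehicle culture of mouse 2 were not analysed here.

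BMPs are secreted ligands of the TGF-β superfamily. They bind pairs of type I and type II receptor kinases, which phosphorylate Smad1, Smad5 and Smad9. These join Smad4 and activate genes such as the Id genes, whose products hold basic helix-loop-helix transcription factors in inactive pairs. Noggin (Nog) and gremlin (Grem1) bind BMPs outside the cell and keep them from their receptors, whereas Bambi is a membrane protein that resembles a type I receptor but has no kinase domain. TGF-β itself signals mainly through Smad2 and Smad3. In the lung, Bmp4 takes part in branching of the airway epithelium during development, and gremlin has been studied in fibrotic lung.

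Promoter sequences of 4 of the 9 members, Id2, Id3, Grem1 and Bmp4, were found in the RefSeq table of GRCm38.p6. They are shown because these genes, 2 of them direct BMP targets, 1 an antagonist and 1 a ligand, carry responses described further on. Each is the 250 bases before the annotated start, given 5′ to 3′ on the gene's own strand, with matches to GGCGCC (a GC-rich element of BMP-responsive Smads) and to CAGAC (the core Smad element) in capitals, searched on both strands. No base was shared by matches to different motifs.
Id2 (chr12:25096093-25096342, minus strand): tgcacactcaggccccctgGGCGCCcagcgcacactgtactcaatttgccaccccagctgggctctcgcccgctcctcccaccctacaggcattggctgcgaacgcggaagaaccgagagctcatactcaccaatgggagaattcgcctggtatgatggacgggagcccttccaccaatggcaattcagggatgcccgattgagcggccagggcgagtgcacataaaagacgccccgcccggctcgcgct
Id3 (chr4:136143572-136143821, plus strand): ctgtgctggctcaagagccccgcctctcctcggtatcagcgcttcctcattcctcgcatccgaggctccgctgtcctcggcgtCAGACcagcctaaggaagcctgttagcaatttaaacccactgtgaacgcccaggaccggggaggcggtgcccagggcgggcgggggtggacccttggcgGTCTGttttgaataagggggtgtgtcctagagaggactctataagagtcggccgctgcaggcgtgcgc
Grem1 (chr2:113758649-113758898, minus strand): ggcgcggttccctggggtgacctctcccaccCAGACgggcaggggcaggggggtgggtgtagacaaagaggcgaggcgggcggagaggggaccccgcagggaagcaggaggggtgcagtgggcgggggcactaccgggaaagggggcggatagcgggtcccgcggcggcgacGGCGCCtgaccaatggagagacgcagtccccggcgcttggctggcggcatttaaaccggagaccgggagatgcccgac
Bmp4 (chr14:46390670-46390919, minus strand): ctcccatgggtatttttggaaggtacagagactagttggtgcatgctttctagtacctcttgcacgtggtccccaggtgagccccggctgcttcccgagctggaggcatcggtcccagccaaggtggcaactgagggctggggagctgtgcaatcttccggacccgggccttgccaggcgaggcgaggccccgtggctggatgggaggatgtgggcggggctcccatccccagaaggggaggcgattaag
The window of Id2 held 1 GGCGCC, starting 231 bases before the start, and that of Grem1 held 1 GGCGCC (78 bases before) and 1 CAGAC (219 bases before). The Id3 window held CAGAC at 167 bases and its reverse complement GTCTG at 68 bases before the start. These letters did not occur in the Bmp4 window, and TGANTCA, the motif of AP-1 factors, occurred in none of the 4. Over 32851 promoter windows of the same length, 9.59% held GGCGCC, 42.2% held CAGAC and 6.75% held TGANTCA, so none of these matches sets the 4 genes apart.

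The libraries held 5113828 to 20317181 counted reads (median 13843287), with the fewest in fibroblast EC of mouse 1. The treatment could be seen in genes that TGF-β is known to induce: Ccn2, Skil and Tgfbi were called higher with TGF-β in epithelial libraries, Ccn2 and Skil in fibroblast libraries, and with IPFc Skil in epithelial libraries (log2 fold change 0.54 ± 0.10 (SE), adjusted p = 0.00242). Each fraction also held markers of the other cell type, taken here as RNA of the other fraction, and this moved with treatment. It was measured as the median level of markers of the other cell type relative to their level in the partner library of the same mouse and treatment (the group mean where the partner was not analysed here), over markers of at least 50 CPM (a gene's count scaled to a common library total, with no further normalization) there. Fibroblast RNA in epithelial libraries came to 5.90 ± 2.41% with vehicle (SD, n = 4), 11.3 ± 4.78% with EC (n = 4), 11.2 ± 5.37% with IPFc (n = 4) and 28.8 ± 2.32% with TGF-β (n = 3). Epithelial RNA in fibroblast libraries came to 19.1 ± 6.07% with vehicle (n = 3), 42.0 ± 9.78% with EC (n = 4), 17.1 ± 7.81% with IPFc (n = 4) and 1.95 ± 1.10% with TGF-β (n = 4). Against vehicle, an exact two-sided permutation test gave p = 0.229 for epithelial IPFc, p = 0.686 for fibroblast IPFc and p = 0.0571 for the other treatments, after adjustment over the 6 comparisons 0.274, 0.686 and 0.0857. For these others 0.0571 is the smallest p that 4 against 3 libraries allow, except for epithelial EC. There 4 against 4 libraries allow a lower p, and the shares overlapped with vehicle (5.18 to 16.8% against 4.33 to 9.48%). The groups of TGF-β libraries did not overlap with vehicle in either fraction, and neither did fibroblast EC (35.8 to 56.6% against 15.5 to 26.1%). All 15 fibroblast markers summed to 1074 to 1831 CPM in epithelial vehicle libraries, 873 to 1968 with EC, 1299 to 3218 with IPFc and 13114 to 14890.0 with TGF-β. All 15 epithelial markers summed to 5419 to 8511 CPM in fibroblast vehicle libraries, 7428 to 11023 with EC, 2488 to 6590 with IPFc and 140 to 554 with TGF-β. The 7 endothelial markers summed to 1.10 to 10.03 CPM and the 7 immune markers to 4.50 to 14.4 CPM over all libraries. In bulk samples, fewer cells of a type and less RNA per cell cannot be told apart. A marker made by the sorted cells themselves would also count as RNA of the other fraction, and this was not tested. Among fibroblast markers in epithelial libraries, Sparc averaged 45.3% of its partner level with vehicle and 79.4% with TGF-β. Fn1 averaged 6.40% and 44.7%, beside medians over the markers of 5.99% and 28.3%.

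**Figure D1:**
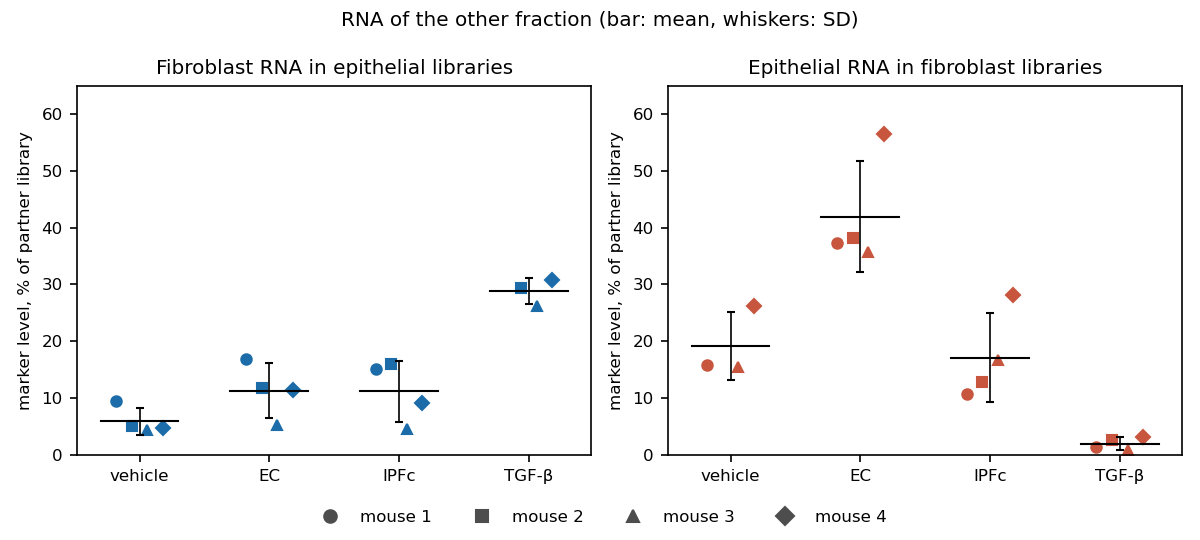
Share of RNA of the other fraction in each library, as the median level of the other cell type's markers in percent of their level in the partner library. Symbols are mice, bars are means and whiskers are SD. Fibroblast RNA in epithelial libraries averages 5.90% with vehicle and 28.8% with TGF-β, and epithelial RNA in fibroblast libraries lies between 42.0% with EC and 1.95% with TGF-β.

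Because of this, called results are given again after the reads that the other fraction would bring (its share times the member's CPM in the partner library) were subtracted from every gene, and that level itself is given beside the responses to TGF-β and beside other results where it is a large part of what was measured. Negative counts were set to 0, so a fold change fitted to a gene with nothing left depends on the fit and is not a bound. Markers differed in their ratio to the partner library, from 20.1 to 79.4% with a median of 28.3% in epithelial TGF-β libraries. In fibroblast libraries they ran from 31.2 to 126.5% with EC (median 41.7%) and from 15.2 to 73.9% with vehicle (median 19.9%). Sftpc and Cldn18 had the highest ratios in both, at 126.5 and 92.7% with EC and 73.9 and 62.6% with vehicle, while Epcam had 32.9 and 16.0%. The epithelial markers there were thus not in the proportions of the partner library, which the subtraction assumes. The subtraction carries that uncertainty in both fractions. A member was called when its Benjamini-Hochberg adjusted p, over all genes tested with edgeR's quasi-likelihood test with the mouse as a block, was below 0.05. All treatments share the vehicle libraries of their fraction.

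With vehicle, ligands were higher in the epithelial fraction and Grem1, Id2 and Id3 in the fibroblast fraction. Of the 9 members, 7 were called, where 56% of all 18364 genes tested were called. Bmp2 (log2 difference, epithelial minus fibroblast, 2.34 ± 0.29, SE), Bmp4 (1.97 ± 0.20) and Bambi (1.00 ± 0.24) were higher in epithelial libraries, with adjusted p of 0.000943 or lower. Bmp7 was called higher there too (adjusted p = 2.20e-05), at 35, 78, 63 and 15 reads against 0, 0 and 2 reads in fibroblast libraries, too few for a fold change. Grem1 (-4.23 ± 0.27), Id3 (-3.37 ± 0.23) and Id2 (-0.75 ± 0.17) were higher in fibroblast libraries, with adjusted p of 0.000587 or lower. Id1 was at 82.8 ± 21.7 CPM (SD, n = 4) in epithelial and 109.5 ± 28.0 CPM (SD, n = 3) in fibroblast libraries (difference -0.29 ± 0.24, adjusted p = 0.304, 95% interval -0.78 to 0.19). Subtraction removes RNA of the fraction in which a gene is higher and so widens such differences. The same 7 members were called in the same directions after it, which is no separate support. Per kilobase of exon, the only scale on which genes can be compared with each other, Grem1 led in fibroblast vehicle libraries at 639 ± 92.1 CPM per kb (SD, n = 3), followed by Id3 at 103 ± 5.90, Id1 at 61.7 ± 15.8, Id2 at 19.7 ± 2.67 and Bmp4 at 4.45 ± 0.593. In epithelial vehicle libraries Id1 led at 46.6 ± 12.2 CPM per kb (n = 4), then Grem1 at 33.7 ± 12.6, Bmp4 at 16.6 ± 2.23, Id2 at 10.7 ± 1.01 and Id3 at 9.15 ± 1.28. Fibroblast RNA would bring 70.2 to 147% of this Grem1, 41.7 to 103% of this Id3 and 3.88 to 20.8% of this Id1, so this order is that of the libraries as measured. Bmp2 (2.53 ± 0.523), Bambi (2.19 ± 0.426), Bmp7 (0.732 ± 0.487) and Nog (0.0655 ± 0.0754) were lower there.

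**Figure D2:**
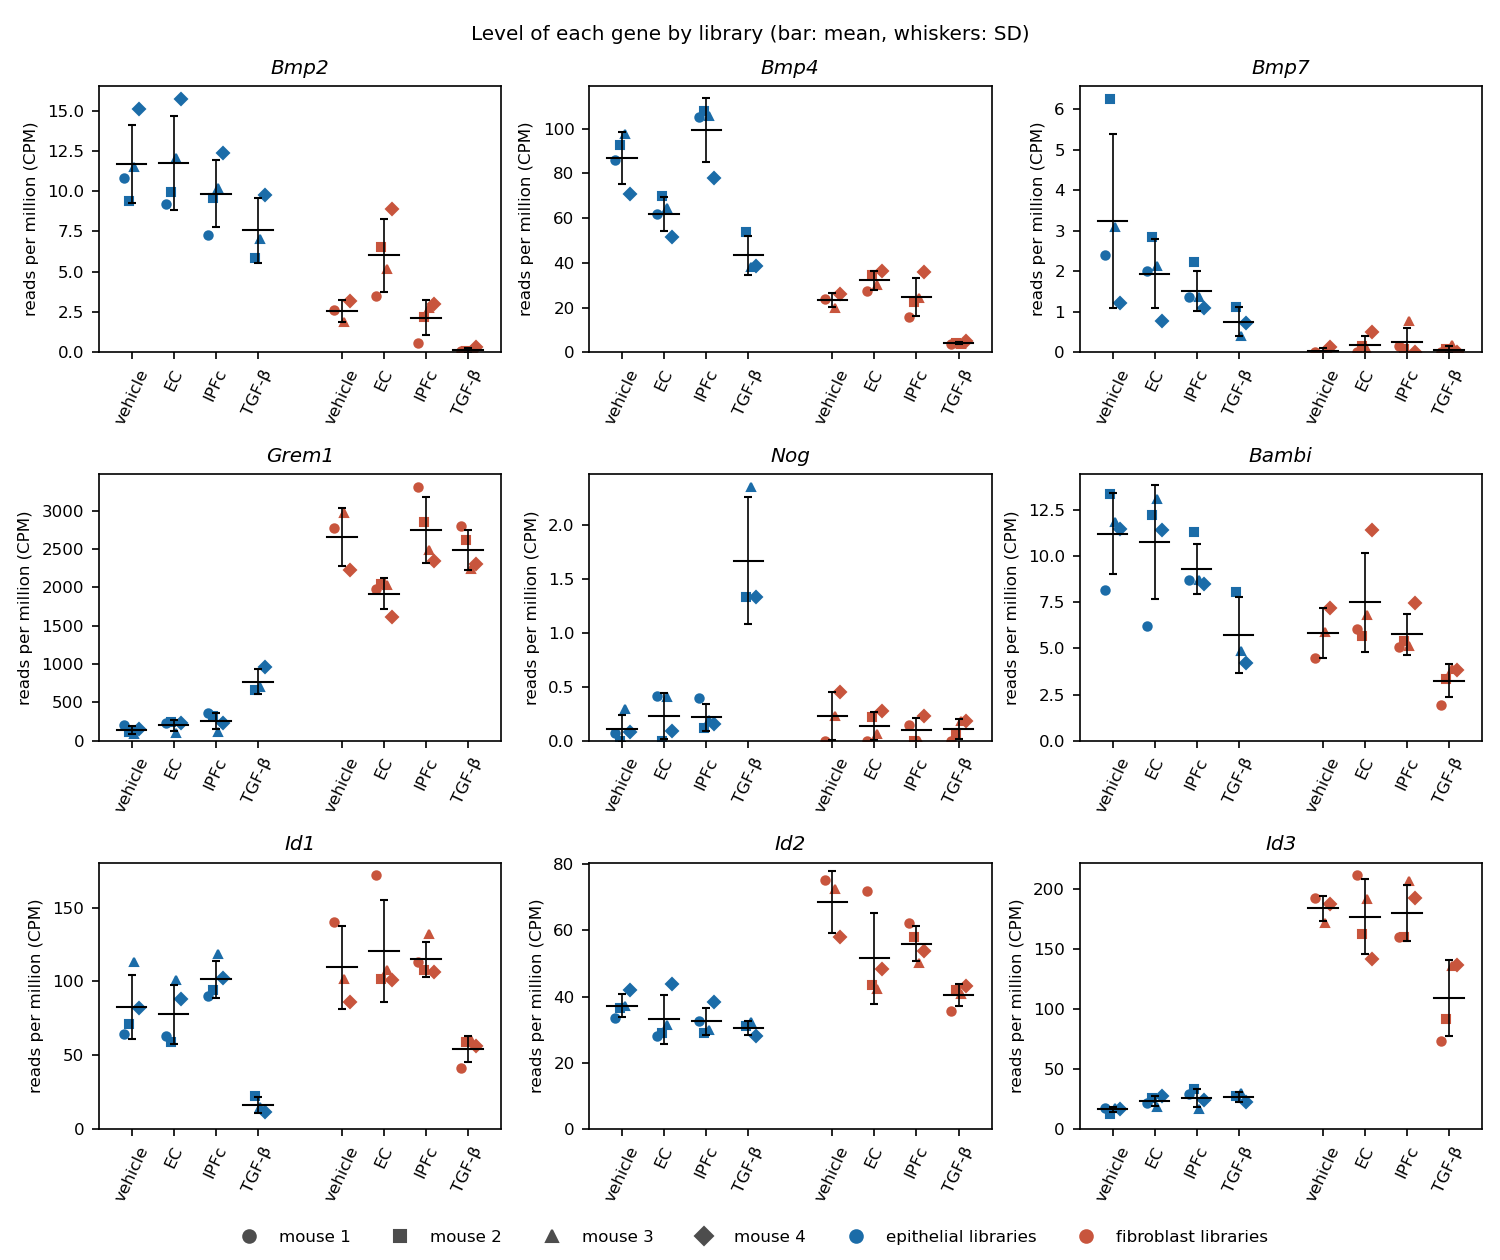
Level of each member in every library, in CPM, by fraction and treatment. Symbols are mice, bars are group means and whiskers are SD, and each panel has its own linear axis from 0. Id1 is lowest in epithelial TGF-β libraries (16.2 CPM), Grem1 is highest in fibroblast libraries, and Nog is above 1 CPM only with TGF-β in epithelial libraries.

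TGF-β gave the widest response in epithelial libraries: all 9 members were called, against 41.1% of 18024 genes tested, 6 of them lower (20.1% of all genes were lower) and 3 higher. After subtraction 8 members were called, against 26.1% of 17582 genes. Id1, a direct BMP target, stood at 64.1, 71.5, 113 and 82.1 CPM with vehicle in mice 1 to 4 and at 22.1, 15.2 and 11.2 CPM with TGF-β in mice 2 to 4. Every TGF-β library was far below every vehicle library, and Id1 fell by 2.46 ± 0.20 on the log2 scale (SE, adjusted p = 4.02e-09). Fibroblast RNA would bring 17.3, 15.8 and 17.3 CPM of Id1 to these 3 libraries, which is 78.4 to 154% of what was measured. What was left was -6.06 to 4.78 CPM, against 50.8 to 109 CPM with vehicle. With vehicle fibroblast RNA would bring 3.88 to 20.8% of Id1, so subtraction took far more of it with TGF-β and could hardly undo a fall. That Id1 was called lower after subtraction is therefore no separate support (adjusted p = 9.80e-05, and 2.08e-77 to 9.80e-05 over the 11 alternatives).

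The other Id genes behaved differently from Id1 in epithelial libraries. Id2 was at 33.4, 36.6, 37.2 and 41.9 CPM with vehicle and 31.1, 32.3 and 28.2 CPM with TGF-β, a small difference without overlap (log2 fold change -0.41 ± 0.13 (SE), adjusted p = 0.0174). Fibroblast RNA would bring 33.2 to 47.2% of the measured Id2 to these libraries and 6.58 to 21.3% with vehicle. Subtraction took more of Id2 with TGF-β than with vehicle and left it called lower, with a log2 fold change of -0.64 ± 0.20 (SE, adjusted p = 0.0278, and 0.00265 to 0.0803 over the 11 alternatives). Id3 was at 17.7, 13.0, 17.9 and 17.0 CPM with vehicle and 27.6, 30.2 and 22.6 CPM with TGF-β, and was called higher in the counts as deposited (log2 fold change 0.63 ± 0.20 (SE), adjusted p = 0.0142), though not without mouse 2 (adjusted p = 0.0945). Its level in fibroblast libraries is high, and fibroblast RNA would bring 27.0, 35.6 and 42.2 CPM to the TGF-β libraries, 98.1 to 187% of the measured Id3. What was left was -19.6 to 0.531 CPM with TGF-β and -0.592 to 10.4 CPM with vehicle, so after subtraction Id3 was called lower instead (adjusted p = 0.0242). In the 9 alternatives without subtraction Id3 was higher, with adjusted p of 1.10e-04 to 0.0945.

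Of the ligands, Bmp4 was at 86.1, 92.8, 97.8 and 71.0 CPM in epithelial vehicle libraries and 53.6, 38.3 and 38.4 CPM with TGF-β. The groups did not overlap and Bmp4 fell 2.14-fold (log2 fold change -1.10 ± 0.11 (SE), adjusted p = 6.54e-08). It remained called after subtraction, with a log2 fold change of -0.72 ± 0.12 (SE, adjusted p = 4.10e-04, and 4.47e-21 to 5.53e-04 over the 11 alternatives). Bmp7, which is needed for kidney and eye development, was at 2.39, 6.25, 3.10 and 1.21 CPM with vehicle and 1.12, 0.405 and 0.725 CPM with TGF-β (log2 fold change -2.21 ± 0.41 (SE), adjusted p = 1.68e-04), on 15 to 78 and 5 to 21 reads per library. All TGF-β libraries were below all vehicle libraries, although the vehicle libraries themselves were spread widely. After subtraction Bmp7 was still lower, with a log2 fold change of -1.81 ± 0.48 (SE, adjusted p = 0.0126, and 6.94e-07 to 0.0131 over the 11 alternatives). Bmp2 was at 10.8, 9.37, 11.5 and 15.1 CPM with vehicle and 5.84, 7.05 and 9.79 CPM with TGF-β. These ranges overlapped across mice, while within each of the 3 mice with both libraries TGF-β was lower (log2 fold change -0.84 ± 0.16 (SE), adjusted p = 2.15e-04). The call on Bmp2 was lost after subtraction, with a log2 fold change of -0.43 ± 0.17 (SE, adjusted p = 0.0831, and 4.55e-06 to 0.0880 over the 11 alternatives). Fibroblast RNA would bring at most 4.04% of the Bmp4, 11.9% of the Bmp7 and 0.944% of the Bmp2 of a TGF-β library. These percentages do not cover the reads that fibroblast RNA takes up in a library, which can lower the CPM of genes higher in the epithelial fraction. All 3 falls were smaller after subtraction, and how much of each came from such dilution was not tested.

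The antagonists split. Nog was at 1, 0, 6 and 1 reads in epithelial vehicle libraries and at 25, 29 and 11 reads with TGF-β, that is 1.33, 2.35 and 1.33 CPM. No other library of either fraction had more than 7 reads of Nog. The rise was called (log2 fold change 4.06 ± 0.75 (SE), adjusted p = 1.63e-04), its size is poorly fixed at these counts (95% interval 2.51 to 5.62), and fibroblast RNA would bring 0.0202 to 0.0555 CPM. It was called after subtraction too, with a log2 fold change of 4.53 ± 0.86 (SE, adjusted p = 0.00149, and 7.77e-06 to 0.00221 over the 11 alternatives). Bambi was at 8.19, 13.4, 11.9 and 11.4 CPM with vehicle and 8.07, 4.86 and 4.23 CPM with TGF-β, lower in each of the 3 mice (log2 fold change -1.19 ± 0.21 (SE), adjusted p = 8.46e-05), and at -1.10 ± 0.25 after subtraction (adjusted p = 0.00562, and 1.04e-08 to 0.00691 over the 11 alternatives), where fibroblast RNA would bring 12.2 to 28.0% of it with TGF-β. Grem1 rose 6.08-fold, from 208, 114, 87.3 and 151 CPM to 658, 695 and 962 CPM (log2 fold change 2.61 ± 0.19 (SE), adjusted p = 8.21e-10). Fibroblast RNA would bring 768, 587 and 709.7 CPM to these 3 libraries, 73.8 to 117% of the measured Grem1, and 70.2 to 147% of it with vehicle. What was left was -110.3 to 252 CPM with TGF-β and -55.2 to 45.2 CPM with vehicle, which overlap, although the fit to the subtracted counts still called Grem1 (adjusted p = 0.0392, and 2.95e-128 to 0.0392 over the 11 alternatives).

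**Figure D3:**
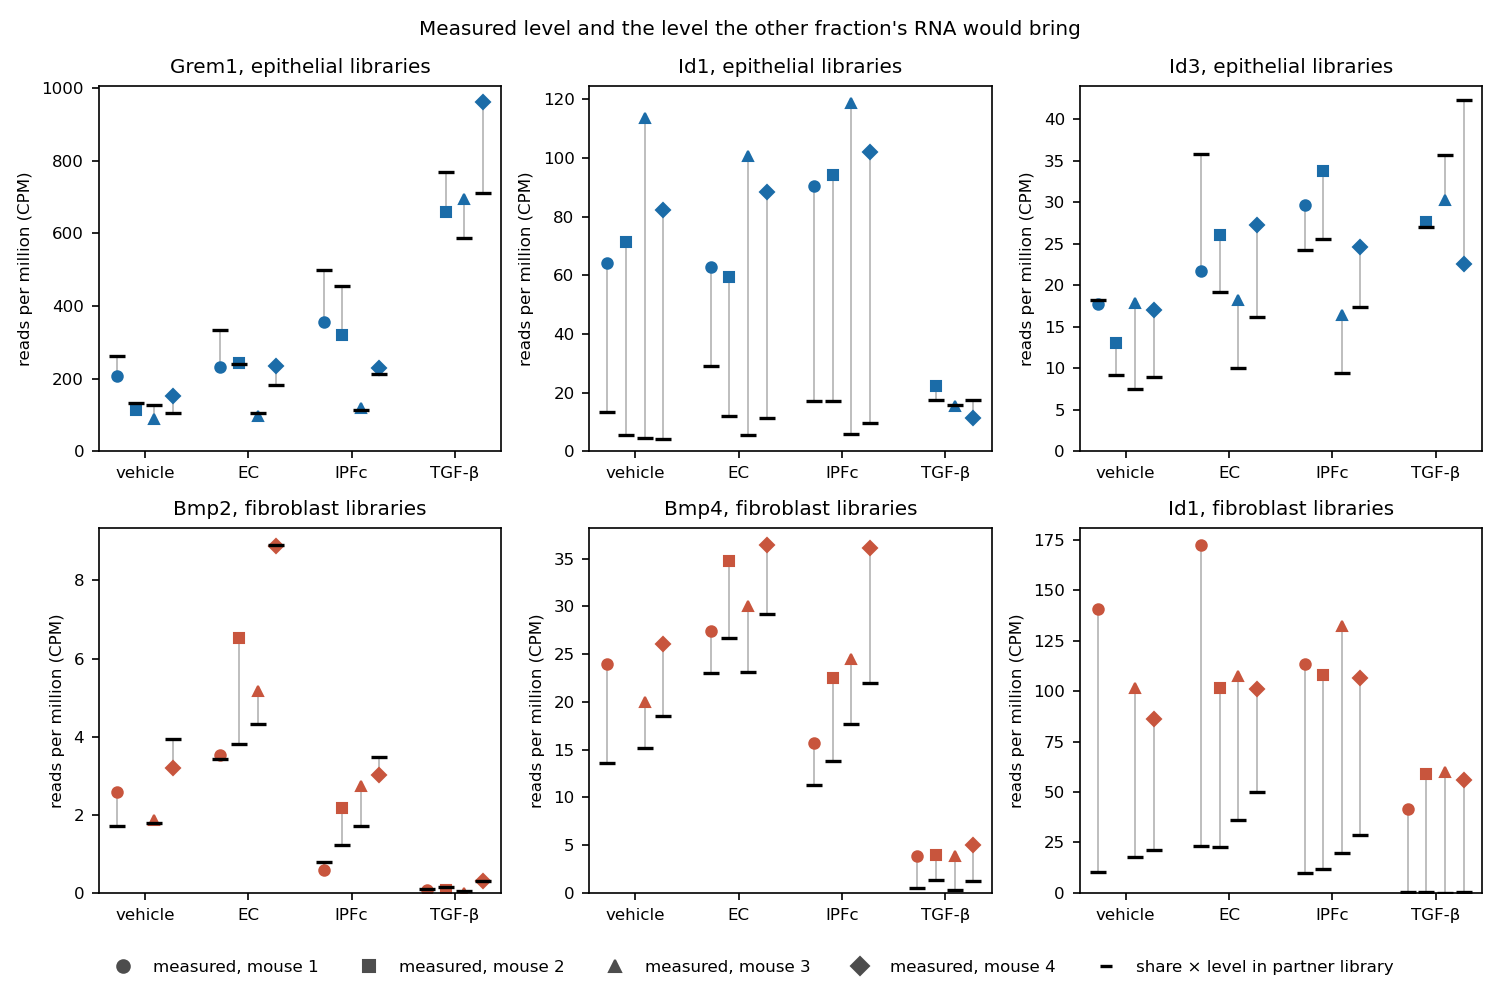
Measured level (symbols, by mouse) and the level that the other fraction's RNA would bring (black dashes), joined by grey lines, for 3 members in epithelial libraries (upper row) and 3 in fibroblast libraries (lower row), in CPM on linear axes from 0. In epithelial TGF-β libraries the dashes lie at 78.4 to 154% of the measured Id1, 98.1 to 187% of Id3 and 73.8 to 117% of Grem1, while with the other treatments they stay at 46.2% of Id1 or below. In fibroblast libraries the dashes lie at 66.0 to 123% of Bmp2 with vehicle and 58.3 to 100.2% with EC.

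In fibroblast libraries TGF-β was followed by lower levels of 6 of the 9 members, against 19.2% of 18048 genes called and 12.8% called lower, and no member was called higher. Without mouse 3, or without mouse 4, 3 of these calls were left. Id1 was at 141, 102 and 86.3 CPM with vehicle in mice 1, 3 and 4 and 41.4, 59.0, 60.0 and 56.2 CPM with TGF-β in mice 1 to 4 (log2 fold change -0.83 ± 0.21 (SE), adjusted p = 0.00748). Id2 was at 75.1, 72.6 and 57.9 CPM and 35.7, 42.0, 40.8 and 43.1 CPM (log2 fold change -0.61 ± 0.17 (SE), adjusted p = 0.0165). Id3 was at 193, 172 and 187 CPM and 73.7, 92.1, 136 and 137 CPM (log2 fold change -0.59 ± 0.20 (SE), adjusted p = 0.0427). None of the 3 Id genes overlapped between the groups, and the TGF-β libraries of Id3 were the more scattered. Epithelial RNA would bring at most 21.5 CPM of Id1, 10.96 CPM of Id2 and 4.45 CPM of Id3 to a vehicle library. After subtraction the log2 fold changes were -0.89 ± 0.28 for Id1, -0.77 ± 0.22 for Id2 and -0.88 ± 0.21 for Id3. Grem1 also moved down with subtraction, from 0.00 to -0.28, so the larger falls of the Id genes are no separate support. Id3 alone kept its call (adjusted p = 0.0342, and 0.00193 to 0.0879 over the 11 alternatives). For Id1 the adjusted p became 0.115 (1.12e-06 to 0.129 over the alternatives) and for Id2 0.0827 (0.00143 to 0.147), in a fit that called 5.22% of all genes.

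The ligands in fibroblast libraries were the members most exposed to epithelial RNA. Bmp4 was at 24.0, 19.96 and 26.1 CPM with vehicle and 3.82, 3.98, 3.86 and 5.04 CPM with TGF-β, 5.18-fold lower without overlap (log2 fold change -2.37 ± 0.18 (SE), adjusted p = 5.27e-08). Epithelial RNA would bring 13.6, 15.1 and 18.5 CPM to the vehicle libraries, 56.7 to 75.8% of their Bmp4, and 0.555, 1.38, 0.310 and 1.22 CPM to the TGF-β libraries. What was left, 4.83 to 10.4 CPM and 2.61 to 3.82 CPM, still did not overlap, but the fit to the subtracted counts did not call it, with a log2 fold change of -1.39 ± 0.39 (SE, adjusted p = 0.0759, and 5.27e-31 to 0.379 over the 11 alternatives). Bmp2 was at 33, 24 and 50 reads (2.60, 1.86 and 3.20 CPM) with vehicle and 1, 1, 0 and 5 reads with TGF-β (log2 fold change -4.38 ± 0.58 (SE), adjusted p = 2.58e-05). Epithelial RNA would bring 66.0 to 123% of the Bmp2 of vehicle libraries, leaving -0.738 to 0.882 CPM, and the call was lost after subtraction (adjusted p = 0.294, and 2.15e-17 to 0.308 over the 11 alternatives). Bmp7 had 0, 0 and 2 reads with vehicle and at most 13 in any fibroblast library, too few for a fold change. Read as a level, 3 reads amount to 0.236 CPM in fibroblast vehicle of mouse 1.

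Among the antagonists of the fibroblast fraction, Grem1 was at 2772, 2965 and 2227 CPM with vehicle and 2794, 2616, 2234 and 2303 CPM with TGF-β, with a log2 fold change of 0.00 ± 0.12 (SE, adjusted p = 0.996) and a 95% interval of -0.25 to 0.25. After subtraction the change of Grem1 was -0.28 ± 0.12 (adjusted p = 0.271), outside that interval but not called. Bambi was at 4.48, 5.88 and 7.18 CPM and 1.95, 3.37, 3.86 and 3.84 CPM, called by a narrow margin (log2 fold change -0.67 ± 0.23 (SE), adjusted p = 0.0491). Epithelial RNA would bring 28.8 to 41.7% of it with vehicle and 1.02 to 6.16% with TGF-β. The call held in 1 of 11 alternatives, and after subtraction the change was -0.32 ± 0.45 (adjusted p = 0.899, and 0.0354 to 0.965 over the alternatives). Nog was at 0, 3 and 7 reads with vehicle and 0, 1, 3 and 3 reads with TGF-β, at which depth no change was detectable.

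The fractions differed in their response to TGF-β for 6 members, against 27.5% of 18364 genes, tested as the interaction of fraction and treatment. The median gene had a difference of 0.21 on the log2 scale (epithelial minus fibroblast response). Id1 fell further in epithelial libraries (difference -1.62 ± 0.32, SE, adjusted p = 3.26e-04), and this held after subtraction, which deepens the epithelial fall of Id1 (adjusted p = 0.00623, and 9.07e-13 to 0.0481 over the 11 alternatives). Nog rose more in epithelial libraries (4.81 ± 1.32, adjusted p = 0.00707) and was the other member whose difference held after subtraction (adjusted p = 0.0161, and 0.00206 to 0.134 over the alternatives, the highest without mouse 4). Bmp2 (3.53 ± 0.56), Bmp4 (1.30 ± 0.21), Grem1 (2.63 ± 0.25) and Id3 (1.25 ± 0.31) were called too, each with the epithelial response the higher, and none of these 4 was called after subtraction, where Id3 changed its sign (adjusted p = 0.0530, 0.379, 0.159 and 0.0997, with ranges over the alternatives of 3.18e-10 to 0.0693, 2.75e-07 to 0.598, 3.27e-55 to 0.159 and 4.29e-08 to 0.0997).

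**Figure D4:**
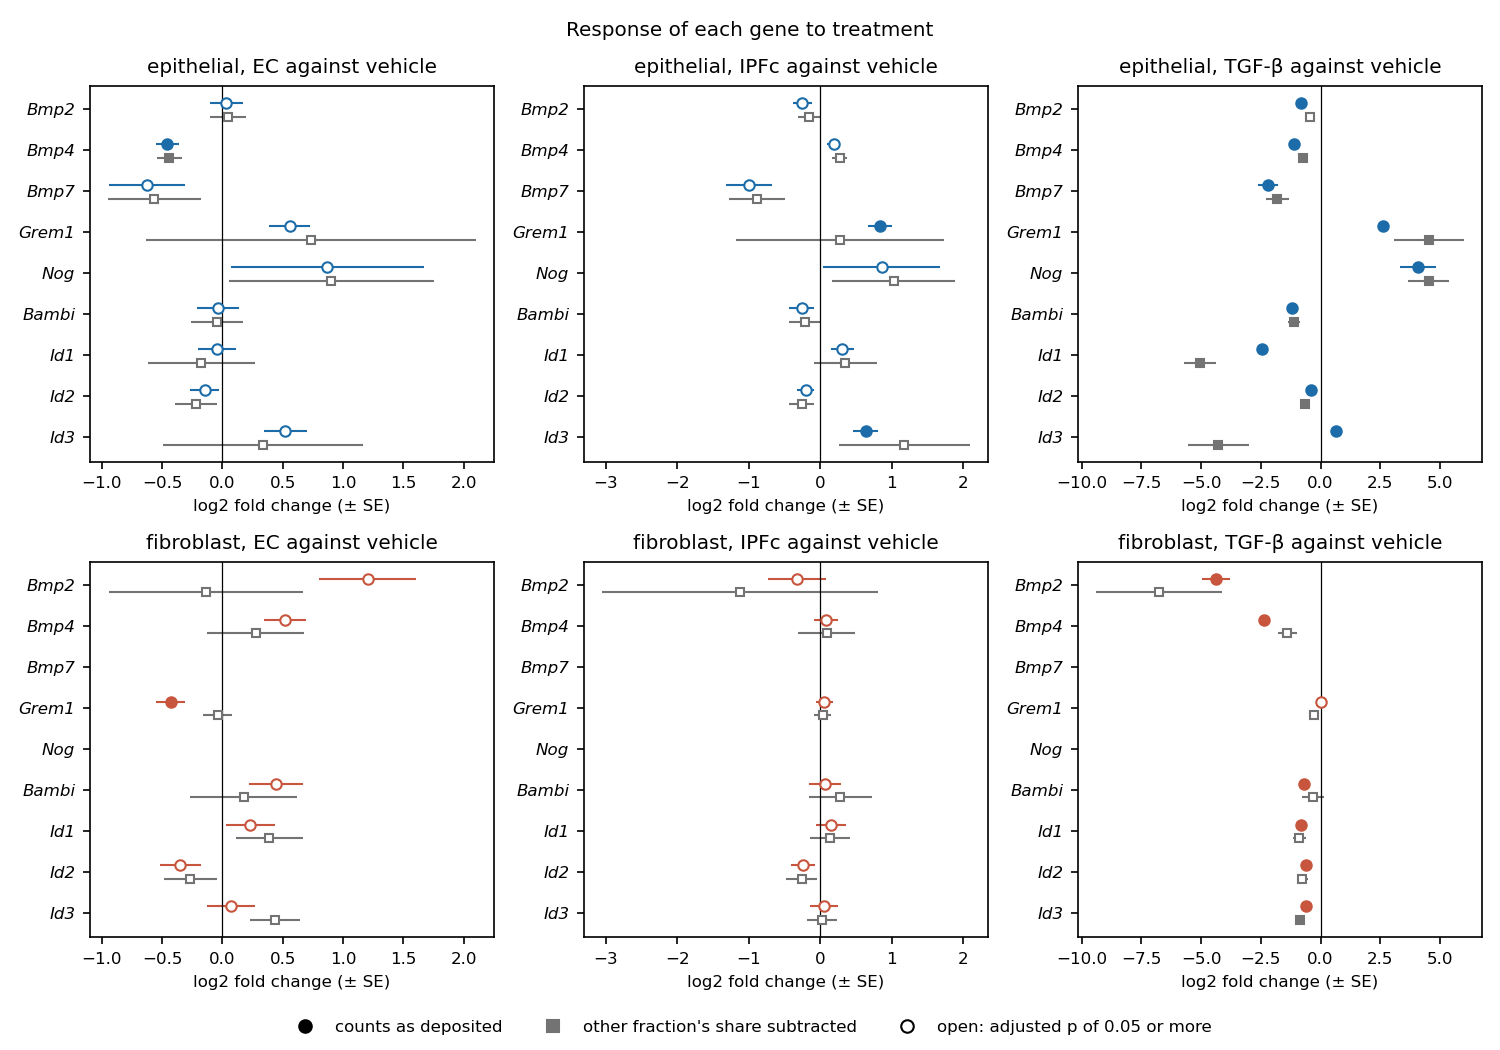
Log2 fold change of each member against vehicle, with SE, by fraction and treatment, for the counts as deposited (circles) and with the other fraction's share subtracted (grey squares). Filled symbols have an adjusted p below 0.05, the axes differ between treatments, and Bmp7 and Nog are left out in fibroblast libraries for lack of reads. With TGF-β in epithelial libraries all 9 members are called in the counts as deposited and 8 after subtraction, where Bmp2 is not called and Id3 changes its sign.

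IPFc, although it contains TGF-β, did not have the TGF-β pattern in these genes. The concentration of TGF-β in IPFc is not known here. Nor was this particular to the members. The median log2 fold change of 4 genes that TGF-β is known to induce was 0.18 with IPFc and 1.87 with TGF-β in epithelial libraries. In fibroblast libraries these medians were -0.0002 and 0.83. In epithelial libraries 2 of 9 members were called, both higher, against 4.1% of 18024 genes. Grem1 was at 355, 319.8, 119 and 229 CPM (log2 fold change 0.84 ± 0.17 (SE), adjusted p = 0.00448), higher than with vehicle in each of the 4 mice. Id3 was at 29.6, 33.7, 16.3 and 24.6 CPM (log2 fold change 0.64 ± 0.18 (SE), adjusted p = 0.0490), higher in 3 of 4 mice, and 1 member was called without mouse 1 or without mouse 2. Fibroblast RNA would bring 92.4 to 142% of this Grem1 and 57.7 to 81.7% of this Id3, and neither was called after subtraction (adjusted p = 1.00 and 0.930, with ranges of 1.74e-16 to 1.00 and 1.51e-04 to 0.930 over the alternatives). Id1 was at 90.3, 94.2, 119 and 102 CPM and Bmp4 at 105, 108, 106 and 78.0 CPM, each higher than with vehicle in 4 of 4 mice but not past the threshold (adjusted p = 0.424 and 0.401). In fibroblast libraries edgeR called 0 of 9 members with IPFc, against 0.449% of 18048 genes, with 0 at an unadjusted p under 0.05 and 0 called by DESeq2. Id1 was at 113, 108, 132 and 106 CPM there, Bmp4 at 15.7, 22.5, 24.4 and 36.1 CPM and Grem1 at 3311, 2849, 2483 and 2342 CPM, with 95% intervals of -0.28 to 0.58, -0.28 to 0.44 and -0.20 to 0.31 for the log2 fold change. The difference of the fractions in their response to IPFc was called by edgeR for 0 members, against 0.229% of 18364 genes, with 2 at an unadjusted p under 0.05 and 0 called by DESeq2.

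Set against TGF-β directly, IPFc left 7 of 9 members different in epithelial libraries, against 37.2% of 18024 genes. Id1 was 6.83-fold higher with IPFc (log2 fold change 2.77 ± 0.20 (SE), adjusted p = 1.25e-09) and Bmp4 2.44-fold higher (log2 fold change 1.28 ± 0.11 (SE), adjusted p = 1.11e-08), both without overlap, and both were called after subtraction (adjusted p = 6.16e-05 and 3.31e-05, with ranges of 6.34e-96 to 6.16e-05 and 5.08e-28 to 4.10e-05 over the alternatives). For Id1 subtraction could hardly undo this, since fibroblast RNA would bring 78.4 to 154% of it with TGF-β and 5.06 to 18.9% with IPFc. Bmp2 (log2 fold change 0.59), Bmp7 (1.21) and Bambi (0.93) were higher and Grem1 (-1.76) and Nog (-3.20) lower with IPFc. Subtraction made the log2 fold changes smaller for Bmp4 (0.99), Bmp2 (0.27), Bmp7 (0.92) and Bambi (0.89). After subtraction Bambi (adjusted p = 0.0201), Grem1 (0.0431) and Nog (0.00636) were called and Bmp2 (0.275) and Bmp7 (0.182) were not, with ranges over the alternatives of 1.62e-05 to 0.0345, 1.08e-59 to 0.0431, 3.28e-04 to 0.0129, 0.00246 to 0.277 and 0.0148 to 0.195. Id3, which did not pass the threshold in the counts as deposited (log2 fold change 0.01 ± 0.20 (SE), adjusted p = 0.981), was called higher with IPFc after subtraction (adjusted p = 0.00774, and 0.00172 to 0.981 over the alternatives), against TGF-β libraries with -19.6 to 0.531 CPM left. In fibroblast libraries 5 of 9 members were higher with IPFc than with TGF-β, against 17.4% of 18048 genes: Bmp2 (log2 fold change 4.05), Bmp4 (2.45), Id1 (0.98), Bambi (0.74) and Id3 (0.64). Without mouse 2, 3 of the 5 calls were left. Id3 was the only member of the 5 called after subtraction (adjusted p = 0.0218, and 8.44e-06 to 0.0791 over the 11 alternatives).

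EC changed 1 member in each fraction. In epithelial libraries Bmp4 was at 61.8, 69.7, 64.6 and 51.6 CPM with EC, below vehicle in each of the 4 mice and without overlap (log2 fold change -0.45 ± 0.09 (SE), adjusted p = 0.00543), where 4.41% of 18024 genes were called. After subtraction it had a log2 fold change of -0.44 ± 0.10 (SE, adjusted p = 0.0448, and 2.33e-04 to 0.0814 over the 11 alternatives), and the call was lost without mouse 1 and without the mouse block, while 3 members were called without mouse 3. Id1 (59.3 to 101 CPM), Id2 (28.1 to 43.9 CPM) and Bambi (6.23 to 13.1 CPM) overlapped with vehicle (adjusted p = 0.946, 0.657 and 0.960). Id3 was at 21.7, 26.0, 18.2 and 27.2 CPM, above all vehicle libraries but not called (adjusted p = 0.128), with 54.7 to 164% of it at the level that fibroblast RNA would bring. In fibroblast libraries Grem1 was at 1981, 2039.6, 2028 and 1611 CPM with EC, below every vehicle library (log2 fold change -0.43 ± 0.12 (SE), adjusted p = 0.0391), where 7.11% of 18048 genes were called. With the epithelial share of 35.8 to 56.6% subtracted the change was -0.04 ± 0.12 (adjusted p = 0.965, and 0.00469 to 0.981 over the 11 alternatives), and the call held in 3 of them. Without fibroblast EC of mouse 1, the shallowest library, and the other libraries of that mouse 4 members were called, and without any of the other mice 0. Bmp2, at 3.52, 6.53, 5.17 and 8.89 CPM, and Bmp4, at 27.4, 34.7, 30.0 and 36.4 CPM, lay above all vehicle libraries without being called (adjusted p = 0.0831 and 0.0806). Epithelial RNA would bring 58.3 to 100.2% of this Bmp2 and 76.7 to 84.2% of this Bmp4. The response to EC differed between the fractions for 2 members, against 4.59% of 18364 genes: Bmp4 (difference -0.98 ± 0.19, SE, adjusted p = 0.00353) and Grem1 (0.98 ± 0.24, adjusted p = 0.0169). Neither was called after subtraction (adjusted p = 0.555 and 0.769, with ranges of 9.81e-05 to 0.958 and 1.13e-07 to 0.995 over the alternatives), and 1 of the 2 was called without mouse 2, 3 or 4.

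Ordered by their mean over the 8 groups, the members fell into different patterns. Bmp4 ran from 99.4 CPM in epithelial IPFc and 86.9 CPM in epithelial vehicle libraries, which overlapped, through 61.9 CPM (EC) and 43.4 CPM (TGF-β), which overlapped with each other, to the fibroblast EC, IPFc and vehicle libraries (32.1, 24.7 and 23.3 CPM, overlapping neighbours) and, apart from all others, fibroblast TGF-β (4.18 CPM). For Id1 all groups but epithelial TGF-β formed a chain of overlapping neighbours from 121 CPM in fibroblast EC down to 77.8 CPM in epithelial EC and 54.1 CPM in fibroblast TGF-β, and epithelial TGF-β stood apart at 16.2 CPM. Id3 had its 3 highest means in fibroblast libraries with vehicle, IPFc and EC (184, 180.0 and 177 CPM), then fibroblast TGF-β at 109.6 CPM, and all epithelial groups lay at 26.8 CPM or below. Id2 was the flattest member, from 68.5 CPM in fibroblast vehicle to 30.5 CPM in epithelial TGF-β libraries, with every neighbour overlapping. Grem1 was at 1915 to 2746 CPM in the fibroblast groups, 771 CPM in epithelial TGF-β and 140 to 256 CPM in the other epithelial groups. Bmp2 went from 11.7 CPM in epithelial EC to 0.112 CPM in fibroblast TGF-β libraries, with a gap below fibroblast EC at 6.03 CPM. Bambi covered the range from 11.2 CPM in epithelial vehicle to 3.25 CPM in fibroblast TGF-β libraries, and only the latter did not overlap with its neighbour. Bmp7 was highest in epithelial vehicle at 3.24 CPM, with each neighbour overlapping.

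The genes most like each member over the 8 group means, among 13129 others of at least 1 CPM, were found by the root mean square difference of centred log2 CPM. For Bmp2 these were Foxa2, an airway epithelial transcription factor (0.09), and Crb3, an epithelial polarity gene (0.10). For Grem1 they were Nid1, a basement membrane protein (0.06), and Hoxb9 (0.09). Bmp4 was closest to Map3k21 (0.19) and Nr1h3 (0.20), Bambi to Mid1ip1 (0.06) and Tmem62 (0.07), Id2 to 9530077C05Rik (0.09) and Mrnip (0.10), and Id3 to Sod3, the extracellular superoxide dismutase (0.17), and Vldlr (0.17). Id1 had no neighbour as close, with H2-Q10 at 0.35 and Ssc4d at 0.43, nor had Nog (Pdgfd 0.26, Dok2 0.31) or Bmp7 (Plch2 0.39, Nefh 0.42). The 8 points of each profile share the libraries, and with them the share of the other fraction.

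The rest of the pathway was counted from lists of further BMP genes. With TGF-β in epithelial libraries 6 of 9 other antagonists tested were called higher, 6 of 10 receptors, 4 of 8 transducers and 1 of 5 ligands, while 3 of 4 other targets were lower and 1 higher. Together these were 21 of 36 genes, beside 41.1% of all genes tested. These counts are of the counts as deposited. With vehicle, 7 of 9 antagonists, 8 of 10 receptors and 6 of 8 transducers were called higher in the fibroblast than in the epithelial fraction, where 56% of all genes were called in either direction. Fibroblast RNA in epithelial libraries would therefore raise many of these genes, and how much of the rises it brought was not tested for the lists. The median log2 fold change was 1.44 for the antagonists and -1.07 for the targets, beside 0.03 for all genes. The antagonists Fstl1 (3.15 ± 0.21, SE) and Bmper (3.33 ± 0.29) and the receptor Acvrl1 (2.71 ± 0.26) were among those with the smallest adjusted p, from 2.83e-10 to 4.98e-08. After subtraction Fstl1 (adjusted p = 5.87e-04) was called and Bmper (0.0737) and Acvrl1 (0.120) were not. With TGF-β in fibroblast libraries 2 of 4 other ligands were lower, 4 of 10 antagonists higher, 2 of 10 receptors higher and 1 lower, 2 of 8 transducers lower and 2 of 5 targets lower, together 13 of 37 genes beside 19.2% of all genes tested. The target Atoh8, a basic helix-loop-helix factor, went from 15.6 to 2.47 CPM (-2.39 ± 0.22, adjusted p = 3.96e-07) and was called after subtraction (adjusted p = 8.63e-04). The ligands Bmp3 (-4.27 ± 0.36) and Bmp5 (-3.92 ± 0.38) were not called after subtraction (adjusted p = 0.0840 and 0.202).

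The same lists were counted with EC and IPFc. With EC in epithelial libraries 2 of 36 genes were called, beside 4.41% of all genes tested: 1 of 9 antagonists was higher, and 1 of 4 targets was lower, Atoh8 (-0.81 ± 0.19, SE, adjusted p = 0.0148), and it was not called after subtraction (adjusted p = 0.211). With EC in fibroblast libraries 6 of 37 genes were called, beside 7.11% of all genes tested. Of 10 antagonists 1 was higher and 2 were lower, and 3 of 8 transducers were lower, among them the inhibitory Smad6 (-0.84 ± 0.19, adjusted p = 0.0111). Smad6 was not called there after subtraction (adjusted p = 0.498). With IPFc in epithelial libraries 3 of 36 genes were called, beside 4.1% of all genes tested: 1 of 5 ligands was lower, Bmp3 (-0.67 ± 0.11, adjusted p = 5.63e-04, and 0.0255 after subtraction), and 2 of 9 antagonists were higher, among them Bmper (1.14 ± 0.28), which was not called after subtraction (adjusted p = 0.994). With IPFc in fibroblast libraries edgeR called 0 of 37 genes, beside 0.449% of all genes tested, with 5 at an unadjusted p under 0.05 and 2 called by DESeq2.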

How the data were processed

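RNA was sequenced from 30 libraries of separated organoid co-cultures, with a strand-specific kit per the study's methods. The authors trimmed reads with Trimmomatic 0.30 and deposited, for each library, raw counts of reads per Ensembl gene with its symbol, not normalized (55487 genes, 5113828 to 20317181 reads). The aligner, the counter and its strand setting are not given in the sources used here. The labels name GRCm39 and the methods GRCm38, so no coordinate of the counts is printed and promoters are those of GRCm38.p6. Exon lengths for levels per kilobase come from GENCODE on GRCm39. The authors used DESeq2 1.34.0 in paired tests.

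From the deposited counts, edgeR 4.0.16 (R 4.3.3) was run with TMM normalization, the two-sided quasi-likelihood test, genes of a mean count of at least 1 and Benjamini-Hochberg adjustment over all genes tested. Each fraction had 1 fit over its 15 libraries with the mouse as a block (8 residual degrees of freedom). Interactions were fitted over all 30 libraries with the mouse as a block within each fraction, and the fractions were compared in vehicle with the mouse as a block across both. The biological coefficient of variation was 12.7% (epithelial) and 16.9% (fibroblast). The pairing by mouse comes from the labels. As a check, deviations from the group means correlated on average by 0.26 (0.017 to 0.56) within a mouse in epithelial and 0.28 (-0.19 to 0.62) in fibroblast libraries, and by -0.085 and -0.092 between mice. No repeated library was found, since libraries of a group differed by a chi-square between 5.47 and 76.9 per degree of freedom. The fits were tested on simulated data that held no mouse effect and no RNA of the other fraction. Of 100 changes of 1 on the log2 scale, 83 were recovered for epithelial and 76 for fibroblast TGF-β. For the difference in the response to TGF-β 62 were recovered, and for the fractions in vehicle 74. Of 100 changes of 2, 92 to 98 were recovered. A change of 1 that is not called can therefore be real.

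Members and gene lists were chosen with earlier results of these data known. Members are named throughout, other pathway genes as counts with at most 4 of the smallest adjusted p per comparison with vehicle (some genes of these lists are not reported here), and the 2 genes most like each member. Alternatives were DESeq2 size factors, no filter, DESeq2 1.42.0, no block, only the groups compared, each mouse left out and the other fraction's share subtracted. Intervals are at 95% and, like limits drawn from 3 reads, cover counting error or replicate spread only, since no molecular identifiers are described.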

Additional observations from a re-analysis of the deposited data

Results flagged for a closer look

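Within groups of 4 libraries, 9 values in 60 groups lay far from the rest by Dixon's criterion, which by chance marks about 1 group in 20. In epithelial libraries these were Bambi of IPFc mouse 2 (11.3 CPM, others 8.47 to 8.72), Bmp4 of IPFc mouse 4 (78.0 CPM, others 105 to 108), Grem1 of EC mouse 3 (98.0 CPM, others 233 to 242) and the fibroblast RNA of vehicle mouse 1 (9.48%, others 4.33 to 5.00%). In fibroblast libraries they were Bambi of IPFc mouse 4 (7.44 CPM, others 5.06 to 5.39), Bmp4 of TGF-β mouse 4 (5.04 CPM, others 3.82 to 3.98), Grem1 of EC mouse 4 (1611 CPM, others 1981 to 2040.0), Id1 of EC mouse 1 (172 CPM, others 101 to 107) and the epithelial RNA of EC mouse 4 (56.6%, others 35.8 to 38.2%). The library with the lowest Grem1 in fibroblast EC is thus the one with the most epithelial RNA, and the library with high Id1 there is the shallowest of the series (5113828 reads).

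Responses that differed between fractions by the interaction test (log2, epithelial minus fibroblast) were those of Bmp4 (-0.98) and Grem1 (0.98) to EC and those of Bmp2 (3.53), Bmp4 (1.30), Grem1 (2.63), Nog (4.81), Id1 (-1.62) and Id3 (1.25) to TGF-β. With the other fraction's share subtracted, those of Nog and Id1 to TGF-β were called and the others were not.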

How the results depend on the processing

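The counts of members called out of 9 are given here where an alternative moved them by more than 1.5 times. Without the mouse block, the unpaired fit called 0 members for EC and 0 for IPFc in epithelial libraries (1 and 2 with it), 0 for EC in fibroblast libraries (1) and 0 for the difference of the fractions in their response to EC (2). Across all genes the unpaired fit called 10 instead of 843 for that difference, and 321 instead of 1284 for EC in fibroblast libraries. With only the groups compared in the fit, 2 members were called for epithelial EC and 4 for epithelial IPFc. Without a filter there were 3 for epithelial EC, 2 for fibroblast EC and 1 for the difference in the response to IPFc (0). DESeq2 size factors gave 1 for epithelial IPFc and 0 for fibroblast EC, where DESeq2 gave 3. With the other fraction's share subtracted there were 0 for epithelial IPFc, 0 for fibroblast EC, 1 for fibroblast TGF-β (6), 1 for fibroblast IPFc against TGF-β (5), 0 for the difference in the response to EC and 2 for that to TGF-β (6). A share from markers of at least 200 CPM, an alternative added after seeing the data, gave the same counts except 3 for the last. Subtraction reversed Id3 with TGF-β, to -4.28 in epithelial libraries and -3.47 for the difference of the fractions (-9.21 and -8.29 with the added alternative), fits to counts at or near 0 in the TGF-β libraries. Leaving out single mice gave counts from 0 to 3 for epithelial EC, 1 to 2 for epithelial IPFc, 0 to 4 for fibroblast EC, 3 to 4 for fibroblast TGF-β, 3 to 4 for fibroblast IPFc against TGF-β and 1 to 3 for the difference in the response to EC. The other counts of members stayed within 1.5 times under every alternative. Subtraction lowered the number of genes called from 3457 to 912 for fibroblast TGF-β and from 1284 to 35 for fibroblast EC. It also moved the median of all genes to -0.12 for fibroblast EC and to 0.15 for the difference in the response to EC (log2), against -0.02 and -0.02 before.

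Depth limits Nog in all libraries but epithelial TGF-β, and Bmp7 in fibroblast libraries, where changes were not detectable at 13 reads or fewer. The share of the other fraction was estimated from markers of the same libraries, and a partner's RNA is assumed to be carried over in its measured proportions, although single markers differed in their ratios. Libraries of 4 mice and a single fibroblast line do not cover variation between lines.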
